A study of Mus musculus with 6 samples.

Results

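The collagen chains of the arterial wall were followed in injured carotid arteries of mice that overexpress the transcription factor IRF9 in smooth muscle. The 34 collagen chain genes were taken by gene symbol from the 18193 genes that a probe set of 1 gene measures on the array, and all 34 were measured. The list was chosen with earlier results of these data known, and 8 further measured collagen chains lie outside it. The 34 genes are read by 64 of the 45037 probe sets tested, with 13 genes read by 1 probe set and 21 by several. Each gene was taken by the probe set of highest mean over the 6 arrays, here called its brightest, and its other probe sets are given beside it where they differ in sign or call. Each sample pooled 3 to 5 carotid arteries, taken 14 days after wire injury, and 400 ng of its RNA was labelled for 1 Affymetrix array. The 3 control pools came from non-transgenic (NTG) mice. The other 3 came from SMC-IRF9-TG mice, in which the smooth muscle promoter of SM22α drives an HA-tagged cDNA of the whole mouse IRF9 coding sequence. The strain label was C57BL/6 for both groups, the sample labels do not name the transgenic line (the paper chose its line of highest IRF9 for phenotypic work), and the mice were stated to be males of 10 to 12 weeks. All 6 pools were injured, so the data hold no uninjured artery. The labels do not say which animals went into a pool, so a p-value here reflects only how pools differed.

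Collagens are built from 3 polypeptide chains wound into a triple helix, either of 1 kind or of chains encoded by different genes. Fibrillar collagens form the banded fibres that bear load in the media and adventitia, FACIT collagens sit on the surface of those fibrils, network-forming collagens assemble into sheets and beaded filaments, and basement membrane collagens surround each smooth muscle cell and underlie the endothelium. Transmembrane collagens stay in the plasma membrane of the cell that makes them. In a wire-injured artery, smooth muscle cells and fibroblasts that leave the contractile state are known as the main makers of neointimal collagen.

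Array quality and cell markers were examined before the collagens. Values are log2 probe-set levels made by RMA, and every difference is SMC-IRF9-TG minus NTG on that log2 scale unless a fold is named. Medians of the arrays lay between 3.42 and 3.66. Lower quartiles were 2.57, 2.62 and 2.66 in NTG and 2.40, 2.33 and 2.41 in SMC-IRF9-TG, so the dim end of the arrays was lower in SMC-IRF9-TG. Levels under these quartiles are not known to lie above background. Levels of different probe sets are not comparable, so no chain is ranked against another by level. Irf9 itself (1421322_a_at) differed by 0.30 (standard error 0.23, adjusted p = 0.436), and the part of the transcript that this probe set reads is not known here, so it does not check the labels. NTG pool 2 had the largest gap between 3′ and 5′ control probe sets of Actb, 7.09 against 1.56 to 3.04 in the other 5. Xist, made from the inactive X chromosome of females, was at 9.94 in NTG pool 1, at 9.50 in NTG pool 2 and at 2.94 to 4.08 on the other arrays, although the mice were stated to be males. Poly-A control transcripts, which are added before labelling, averaged 5.03 in SMC-IRF9-TG pool 1 and 4.55 in pool 2, against 7.53 to 11.7 on the other arrays. Of 8 contractile smooth muscle markers, none was called and their median difference was 0.14, so the muscle of the artery was read in both groups, with Acta2 between 13.28 and 13.63 on all arrays. All 10 macrophage markers were called higher, with a summed linear level of 168 to 292 in NTG and 3620 to 4960 in SMC-IRF9-TG. Of 8 fibroblast markers, 3 (Lum, Dcn and Pdgfra) were called higher (37.5%, against 3.11% of all genes). Thy1, Fbln1, Pi16 and Dpt were not called (differences of 1.61, 1.03, 0.30 and 0.05), nor was Mfap5 (-0.27). The summed fibroblast level, to which bright markers add most, was 1163 to 1630 in NTG and 3530 to 6089 in SMC-IRF9-TG. The NTG mean of the macrophage marker Mrc1 (2.16) lay under the lower quartile of its arrays. The part of these 3 cell types in the collagen differences was not tested. In whole arteries, more cells of a type and more RNA per cell cannot be told apart.

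RNA was higher in SMC-IRF9-TG arteries for chains of the type I, III and V fibrils, 2 fibril-surface chains and 1 chain each of type VI, VIII and IV collagen. The arrays read RNA only, so collagen protein and fibres were not measured. Col4a1 and Col4a2, the main chains of the vascular basement membrane, were not called. Of the 34 genes, 10 were called higher at an adjusted p under 0.05 (29.4%), against 3.11% of all genes by their brightest probe sets. The called genes were Col1a1, Col1a2, Col3a1, Col5a1, Col5a2, Col6a3, Col8a1, Col12a1, Col14a1 and Col4a5, with differences of 1.29 to 4.07. Col12a1 enters this count through a probe set that is its brightest only because of the SMC-IRF9-TG pools. With the probe set of highest NTG mean for each gene, a choice made after seeing the data, Col12a1 was not called and 9 of the 34 genes were higher, against 2.8% of all genes. Col23a1 alone was called lower, against 0.511% of all genes, and 23 were not called. The groups were separate, with each SMC-IRF9-TG pool above every NTG pool, for 15 of the 34 genes (44.1%), and with each below for 3, where 16.1% of all genes lay above and 16.1% below. For each gene that did not overlap an exact permutation test gives p = 0.1, the smallest 2-sided value that 3 pools against 3 allow. The median difference over the 34 genes was 0.80, with 27 positive and 7 negative, and it was -0.05 over all genes. Over probe sets rather than genes, 19 of 64 were called higher and 1 lower, against 2.37% and 0.373% of all probe sets. The 8 measured collagen chains outside the 34 are not in these counts. None of those 8 was called, and 7 had negative differences (median -0.30). Further fits set a block for the arrays that stand apart. With a block for the NTG pools of high Xist, chosen after seeing the data, only Col1a2 and Col8a1 stayed called (adjusted p of 0.0497 and 0.0118), and the 9 other calls ended at adjusted p of 0.0511 to 0.208. With a block for the SMC-IRF9-TG pools of low poly-A controls, chosen likewise, only Col1a1 and Col8a1 stayed called (adjusted p of 0.0311 and 0.014), and the 9 others ended at 0.0758 to 0.585. Each block leaves a single pool of 1 group to carry the difference, so precision is lower. A lost call therefore does not tell whether a difference depends on the arrays that stand apart. With the Xist block some differences were larger than before, such as Col1a1 at 2.84, and others smaller, such as Col14a1 at 1.37. The differences of all 11 genes kept their sign under both blocks.

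**Figure D1:**
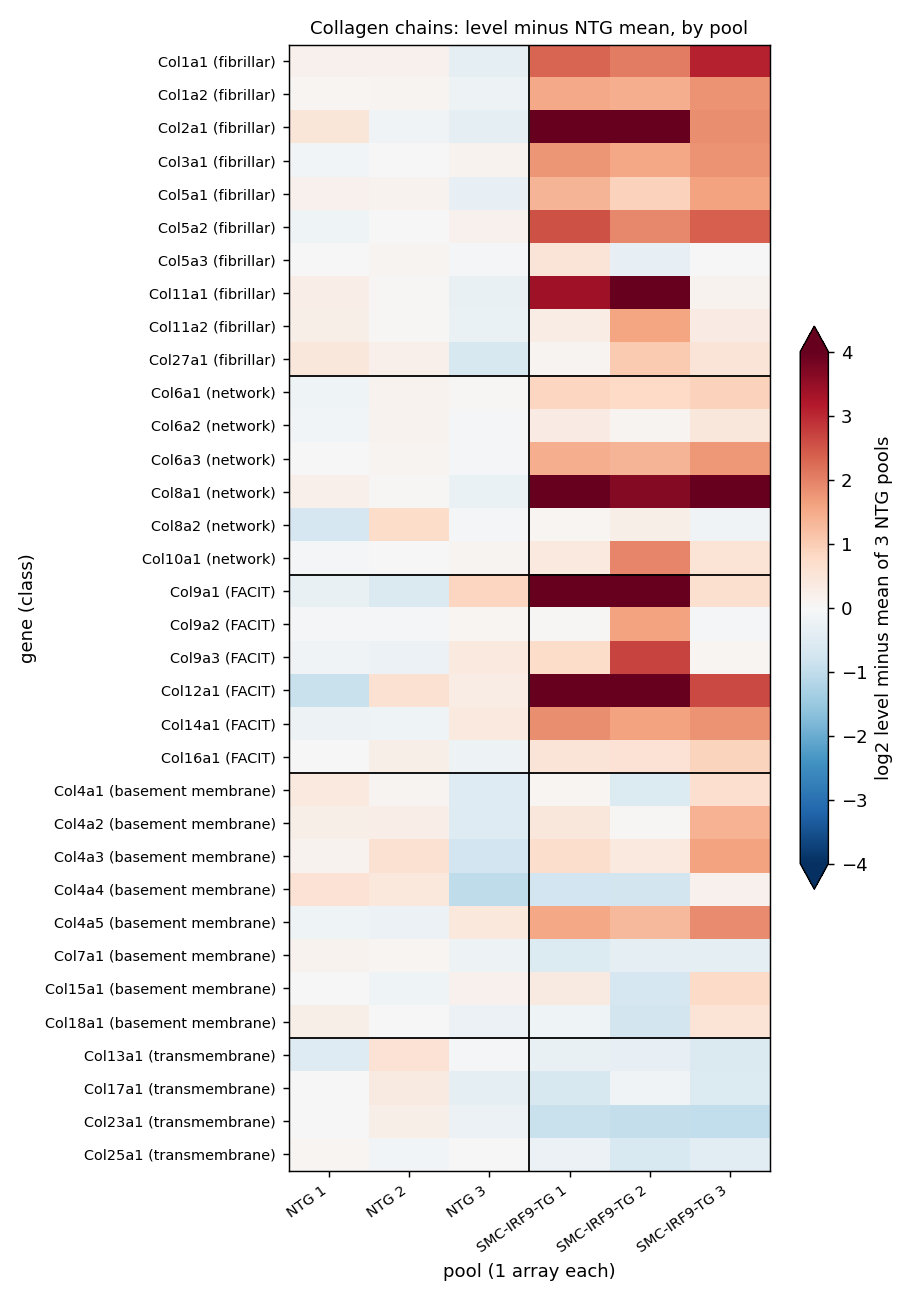
Level of the brightest probe set of each collagen chain in each pool (columns) minus the mean of the 3 NTG pools, in log2 units, with genes (rows) grouped by class. Colours saturate at 4 units. Rows such as Col1a1, Col3a1, Col5a2, Col8a1 and Col14a1 are red in all 3 SMC-IRF9-TG pools, whereas Col2a1, Col9a1 and Col11a1 are darkest in pools 1 and 2 and paler in pool 3.

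RNA of both chains of type I collagen, the main tensile fibre of the artery, was higher. Col1a1 (1455494_at), which encodes the more abundant chain of the type I trimer, read 7.48, 7.49 and 6.95 in NTG and 9.63, 9.36 and 10.39 in SMC-IRF9-TG, with pools given here and below in the order 1, 2, 3. The lowest transgenic pool lay well above the highest control pool, and pool 3 was highest. The rise was 5.6-fold (difference 2.48, standard error 0.30, adjusted p = 0.00582). Its other probe set, 1423669_at, rose by 3.03. Col1a2 (1450857_a_at), the partner chain, read 11.39, 11.44 and 11.13 in NTG and 12.85, 12.77 and 13.11 in SMC-IRF9-TG. It rose 3.01-fold (difference 1.59, standard error 0.20, adjusted p = 0.00703), and its dimmer probe sets rose by 2.32 and 1.52. All 5 type I probe sets were called, and neither group overlapped the other in any of them. Col3a1 (1427883_a_at), the homotrimeric fibre collagen of distensible tissues, read 11.11, 11.21 and 11.37 in NTG and 12.99, 12.78 and 13.04 in SMC-IRF9-TG, which is a 3.26-fold rise (difference 1.71, standard error 0.19, adjusted p = 0.00401). The spread within each group was small (SD of 0.13 and 0.14, n = 3 pools each). The second Col3a1 probe set rose by 1.996.

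Col1a2 and Col3a1 rose together, and the sequences at their transcription starts are shown because they can be read beside that result. RefSeq (GRCm38.p6) gave 30 windows, from 250 bases before to 50 after a start, for 27 of the 34 genes. Col1a1, Col2a1, Col4a3, Col5a2, Col9a3, Col12a1 and Col14a1 were not matched. The window of Col1a2 is chr6:4505368-4505667 on the plus strand and that of Col3a1 is chr1:45311288-45311587 on the plus strand. Both are written 5′ to 3′ with matches to any of 4 motifs in capitals. The motifs were the CCAAT box (CCAAT), the GC box (GGGCGG), the TATA box (TATAAA) and the core of the interferon-stimulated response element (GAAA, any 2 bases, then GAAA), each searched on both strands, and no match overlapped one of another motif.
Col1a2: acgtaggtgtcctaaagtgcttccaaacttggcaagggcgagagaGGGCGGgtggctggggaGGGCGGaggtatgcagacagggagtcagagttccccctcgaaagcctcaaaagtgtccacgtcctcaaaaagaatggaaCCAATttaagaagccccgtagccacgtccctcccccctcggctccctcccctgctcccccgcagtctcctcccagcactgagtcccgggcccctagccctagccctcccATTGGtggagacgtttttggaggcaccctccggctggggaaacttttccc
Col3a1: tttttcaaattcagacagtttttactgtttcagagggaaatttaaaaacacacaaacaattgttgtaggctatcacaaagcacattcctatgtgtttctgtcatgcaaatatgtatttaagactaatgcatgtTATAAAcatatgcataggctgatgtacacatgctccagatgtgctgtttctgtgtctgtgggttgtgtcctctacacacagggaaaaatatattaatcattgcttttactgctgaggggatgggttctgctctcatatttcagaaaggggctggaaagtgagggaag
The Col1a2 window held 2 CCAAT boxes and 2 GC boxes with 61.0% G and C. The Col3a1 window held 1 TATA box and no CCAAT or GC box with 37.7% G and C. These genes, of similar differences, thus had windows of unlike composition. Of the 30 collagen windows, 12 held a CCAAT box, 19 a GC box and 5 a TATA box, and those motifs were in 37.4%, 35.7% and 13.6% of all 32851 windows. None of the 30 collagen windows held the response element core, which 3.44% of all windows held. A match describes letters in the window and is not a site.

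Type V collagen is built into the core of type I fibrils and sets their diameter, and RNA of the chains of its common trimer was higher. Col5a2 (1422437_at) read 9.20, 9.38 and 9.56 in NTG and 11.92, 11.31 and 11.78 in SMC-IRF9-TG, a 4.89-fold rise (difference 2.29, standard error 0.23, adjusted p = 0.00242). Its other probe set rose by 2.34, so both readings of the gene were close. Col5a1 (1416740_at) read 8.60, 8.58 and 8.12 in NTG and 9.79, 9.35 and 10.04 in SMC-IRF9-TG, with a difference of 1.29 (standard error 0.25, adjusted p = 0.034). The groups did not overlap, but the Col5a1 call was kept in 1 of 6 fits that left out a pool (adjusted p of 0.0255 to 0.157 over 15 alternatives). A second Col5a1 probe set rose by 1.70 and the third differed by 0.85 (adjusted p = 0.143). Col5a3 (1419703_at), the chain of a less common type V trimer, read 3.62 to 3.81 in NTG and 3.37 to 4.21 in SMC-IRF9-TG, and the groups overlapped (difference 0.05, 95% confidence interval -0.51 to 0.61). Its dimmer probe set differed by -0.81 (adjusted p = 0.168). Col27a1 (1453191_at), a fibrillar chain of cartilage and other tissues, also overlapped between groups at 5.51 to 6.59 and 6.26 to 7.18 (difference 0.55, interval -0.22 to 1.32). Its other probe set did not overlap (difference 1.41, adjusted p = 0.0889). Of the 10 fibrillar genes, 5 were called higher (50%, against 3.11% of all genes), none was called lower and the median difference was 1.65. The other 3 fibrillar genes, Col2a1, Col11a1 and Col11a2, are described with the cartilage chains.

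**Figure D2:**
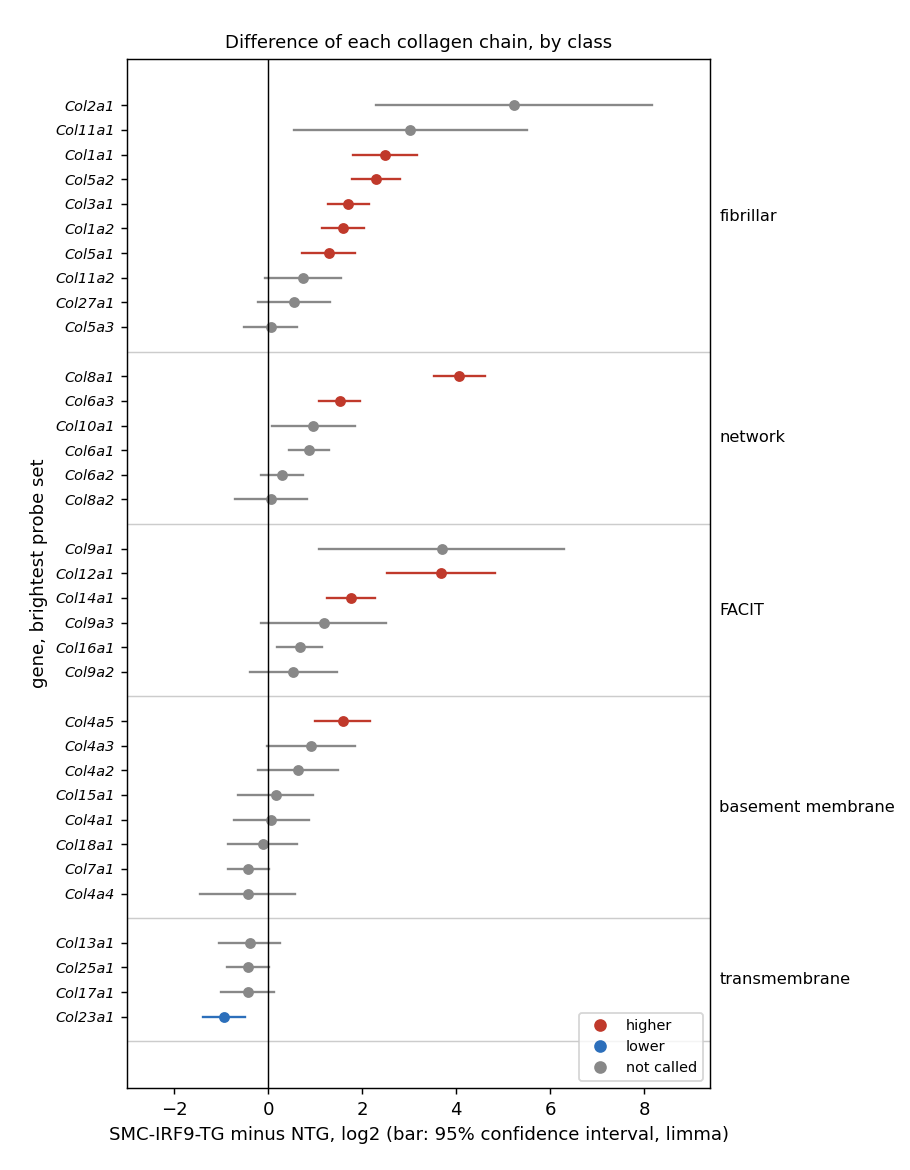
Difference between SMC-IRF9-TG and NTG (x axis, log2 units) for the brightest probe set of each collagen chain (y axis), with bars for the 95% confidence interval from limma and genes ordered within their class. Red points were called higher, the blue point of Col23a1 was called lower at -0.94, and the bars of Col2a1, Col9a1 and Col11a1 are the widest.

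Col8a1 had the largest rise of the called collagen genes. It encodes a short-chain network collagen made by endothelial cells and by smooth muscle cells that migrate after injury. Col8a1 (1455627_at) read 5.37, 5.20 and 4.90 in NTG and 9.38, 8.83 and 9.48 in SMC-IRF9-TG. The highest control pool lay far below the lowest transgenic pool, a 16.8-fold rise (difference 4.07, standard error 0.24, adjusted p = 0.000317). Probe set 1418440_at rose by 4.36, and the dim 1418441_at, which read 2.27 to 3.42 and 3.11 to 3.81, differed by 0.69 (adjusted p = 0.271). Col8a2 (1434667_at), the related chain of type VIII collagen, read 2.21, 3.61 and 2.79 in NTG and 2.95, 3.09 and 2.72 in SMC-IRF9-TG. The groups overlapped (difference 0.05, interval -0.71 to 0.82), at levels near the lower part of each array. The Col8a1 window, at chr16:57754688-57754987 on the minus strand, is shown because the gene had this rise, with the same motifs in capitals.
Col8a1: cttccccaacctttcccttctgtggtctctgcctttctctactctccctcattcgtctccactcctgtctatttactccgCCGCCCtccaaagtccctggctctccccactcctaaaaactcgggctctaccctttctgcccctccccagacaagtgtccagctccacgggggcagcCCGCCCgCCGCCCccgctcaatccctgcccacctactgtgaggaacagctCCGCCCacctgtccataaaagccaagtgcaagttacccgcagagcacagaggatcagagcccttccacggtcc
It held 4 GC boxes, all on the opposite strand to the gene, and none of the other 3 motifs.

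Type VI collagen forms beaded microfilaments that link cells to the fibrils around them, from 3 different chains in its common form. Col6a3 (1424131_at), the longest of these chains, read 8.91, 9.03 and 8.87 in NTG and 10.40, 10.31 and 10.68 in SMC-IRF9-TG. It rose 2.88-fold (difference 1.53, standard error 0.19, adjusted p = 0.00721) and was called in 6 of 6 fits that left out a pool. Col6a1 (1448590_at) read 9.37, 9.69 and 9.58 against 10.42, 10.34 and 10.45. The groups did not overlap, and the difference of 0.86 (standard error 0.19) missed the threshold at adjusted p = 0.0512. It passed in 6 of 15 alternatives, among them the one without NTG pool 2 (adjusted p = 0.0421, range 0.0292 to 0.207). Of these passes, the one at a threshold of 0.10 was certain from the main fit. The one with averaged probe sets used the same Col6a1 values, since the gene has 1 probe set. Those passes add no support. Col6a2 (1452250_a_at) read 9.85, 10.11 and 9.93 against 10.28, 10.07 and 10.41, with a difference of 0.29 (interval -0.15 to 0.73). Its other probe set, 1426947_x_at, whose suffix marks probes that may bind other transcripts, differed by 0.70 (adjusted p = 0.14). The 3 type VI chains thus had positive differences, of which 1 passed.

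Among the FACIT collagens, Col12a1 and Col14a1, which coat type I fibrils in tissues under tension, were called higher, and both genes also have probe sets of the opposite sign. Col14a1 (1427168_a_at) read 6.87, 6.91 and 7.48 in NTG and 8.95, 8.70 and 8.89 in SMC-IRF9-TG, a 3.39-fold rise (difference 1.76, standard error 0.22, adjusted p = 0.00757). Its second probe set rose by 1.76, and the dim 1453931_at read 2.57 to 3.00 and 2.10 to 2.28 (difference -0.63, adjusted p = 0.128). The bright probe sets of Col14a1 gave the same size. Col12a1 (1434411_at) read 2.57, 4.05 and 3.74 in NTG and 7.55, 7.73 and 6.08 in SMC-IRF9-TG, a 12.7-fold rise (difference 3.67, standard error 0.50, adjusted p = 0.00973). The groups did not overlap, and transgenic pool 3 was the lowest of its group. Without SMC-IRF9-TG pool 2 the call was lost (adjusted p = 0.0554, range 0.00475 to 0.151 over 15 alternatives). This probe set is the brightest of Col12a1 only through its transgenic pools. The next, 1427391_a_at, had a higher NTG level of 4.98 ± 0.43 (SD, n = 3 pools) and read 5.19 ± 0.27 in SMC-IRF9-TG (difference 0.21, adjusted p = 0.641). The remaining Col12a1 probe sets differed by -0.48 and -0.77 and were not called. Averaged over its 4 probe sets, Col12a1 differed by 0.66 (adjusted p = 0.123). Col16a1 (1427986_a_at), a FACIT chain found near smooth muscle, read 5.79, 6.04 and 5.60 against 6.34, 6.38 and 6.71, without overlap (difference 0.66, adjusted p = 0.13).

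**Figure D3:**
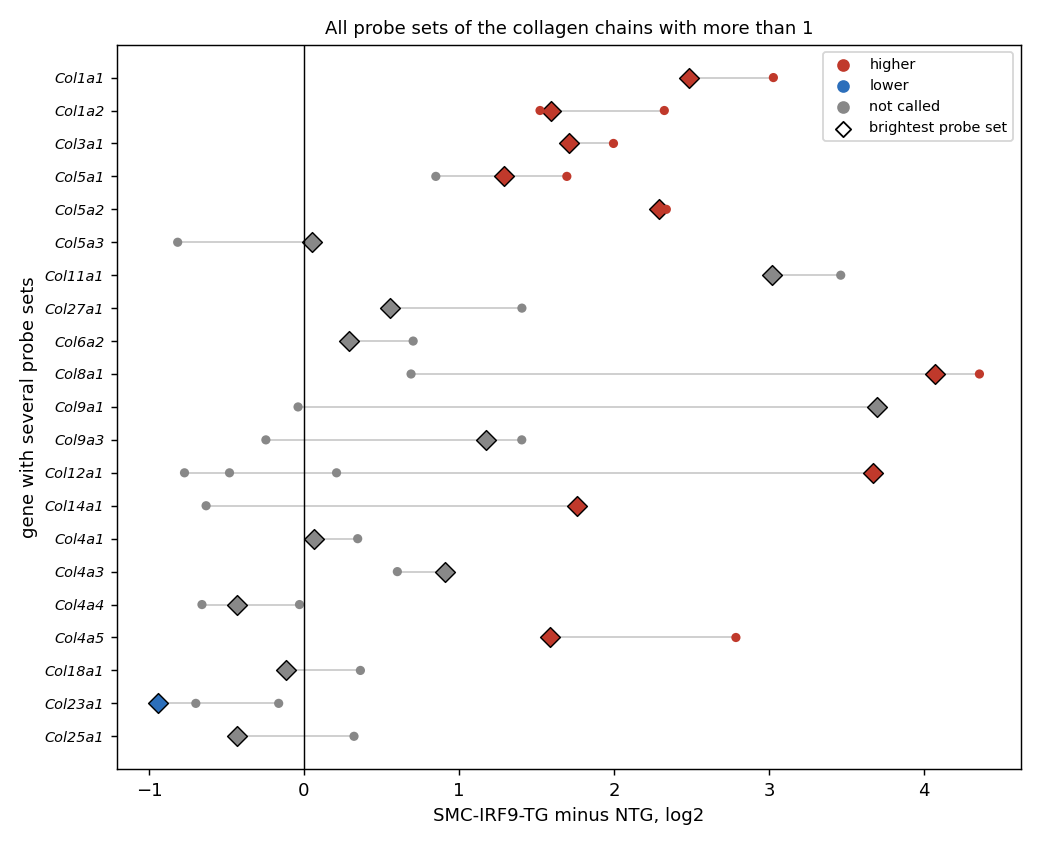
Difference between SMC-IRF9-TG and NTG (x axis, log2 units) for every probe set of the 21 collagen genes with more than 1 (y axis), with a diamond for the brightest of each gene and red, blue or grey for called higher, called lower or not called. Probe sets of 14 genes share a sign, and the diamonds of Col12a1, Col9a1, Col8a1 and Col14a1 lie far from at least 1 other probe set of the gene.

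The chains that define cartilage collagen were high in some SMC-IRF9-TG pools and not in others. These are Col2a1, the fibre of hyaline cartilage, Col11a1 and Col11a2, which join it in the fibril, the type IX chains Col9a1, Col9a2 and Col9a3 on its surface, and Col10a1, the network collagen of hypertrophic cartilage. Col2a1 (1450567_a_at) read 3.94, 3.35 and 3.13 in NTG and 9.04, 11.71 and 5.35 in SMC-IRF9-TG. Every transgenic pool lay above the controls, but those pools were spread widely, and the difference of 5.23 (standard error 1.29) was not called (adjusted p = 0.0749). Col9a1 (1428571_at) read 3.59, 3.28 and 4.74 in NTG and 8.32, 9.86 and 4.51 in SMC-IRF9-TG (difference 3.69, adjusted p = 0.126). This probe set, too, is the brightest only through its transgenic pools, since the NTG mean was 3.87 and that of 1421381_a_at, which differed by -0.04, was 5.09. Col11a1 (1418599_at) read 3.15, 2.93 and 2.58 against 6.28, 8.40 and 3.04 (difference 3.02, adjusted p = 0.165). For both genes SMC-IRF9-TG pool 3 lay within the range of the controls, and pool 2 was highest. The second Col11a1 probe set had the same order (7.04, 8.65 and 2.27 in SMC-IRF9-TG), and the Col9a1 values rest on 1428571_at alone. Without SMC-IRF9-TG pool 3, all 3 genes passed, with differences of 6.90, 5.22 and 4.45 (adjusted p of 0.00704, 0.00798 and 0.0154). That pool was the lowest transgenic pool for all 3 genes, so leaving it out had to raise their differences. These passes add no support. Over 15 alternatives the adjusted p of Col2a1 ranged from 0.00704 to 0.265, of Col9a1 from 0.00798 to 0.345 and of Col11a1 from 0.0154 to 0.4.

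The dimmer cartilage chains had their highest value in SMC-IRF9-TG pool 2 as well. It read 6.87 for Col9a3 (1460734_at) against 3.93 to 4.89 elsewhere, 4.42 for Col9a2 against 2.75 to 2.91, 4.99 for Col10a1 against 2.95 to 3.56 and 4.76 for Col11a2 against 2.90 to 3.51. None of these 4 was called, with adjusted p of 0.199 to 0.44. The dimmer probe sets of Col9a3 differed by 1.40 and -0.25 and were not called. Of the 9 chondrocyte markers, Acan, the aggregating proteoglycan of cartilage, was called higher (11.1%, against 3.11% of all genes) and 8 were not called. Acan read 4.82, 3.98 and 5.76 in NTG and 8.49, 9.31 and 8.61 in SMC-IRF9-TG (difference 3.95, adjusted p = 0.00381). Its 3 transgenic pools lay close together, whereas those of Col2a1, Col9a1 and Col11a1 did not. Cnmd, which encodes chondromodulin of avascular cartilage, read 2.39 to 2.47 in NTG and 6.67, 8.90 and 1.74 in SMC-IRF9-TG. Hapln1, which links aggrecan to hyaluronan, read 2.19 to 2.51 in NTG and 4.50, 7.01 and 2.10. Both had pool 3 under the NTG values. Comp and Sox9, a matrix protein and the transcription factor of cartilage, were above every control in all 3 transgenic pools, at 6.09, 7.59 and 5.26 against 2.86 to 5.25 and at 4.83, 5.75 and 4.63 against 3.44 to 4.28. Chad, Matn3 and Snorc overlapped between groups, with differences of 2.004, 0.89 and 0.70. Matn1 had a negative difference (-0.59) and was lowest in pool 2, while the other 8 markers were highest there. The summed linear level of the 9 markers was 80.1 to 149.9 in NTG and 641, 1782 and 509 in SMC-IRF9-TG. The NTG means of Hapln1 (2.31) and Cnmd (2.44) and the SMC-IRF9-TG mean of Matn1 (2.12) lay under the lower quartile of their arrays. SMC-IRF9-TG pools 1 and 2 also had the low poly-A controls. The part of cartilage cells in the collagen values was not tested. With the cartilage chains left out, 10 of 27 genes were called higher (37.0%, against 3.11% of all genes) and the median difference was 0.63.

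**Figure D4:**
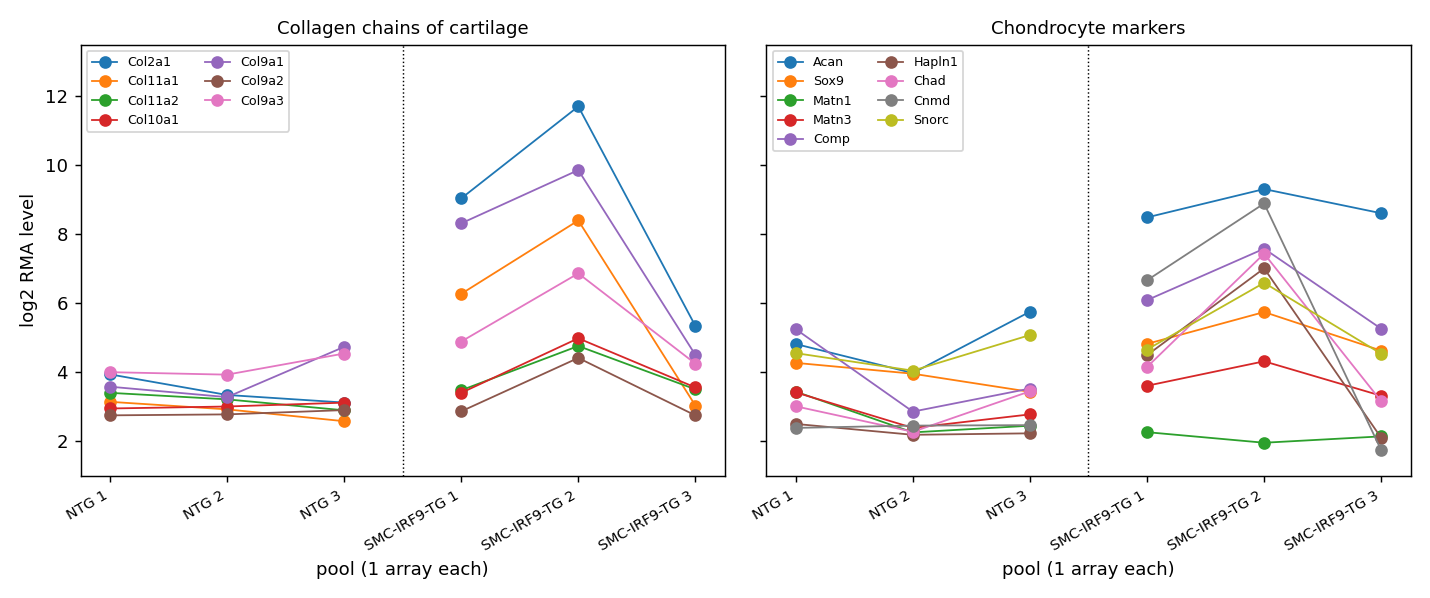
Log2 RMA level (y axis) of 7 collagen chains of cartilage (left) and 9 chondrocyte markers (right) in each pool (x axis), with a colour for each gene and lines that join its points within a group and carry no order. Col2a1, Col9a1, Col11a1 and Cnmd peak in SMC-IRF9-TG pool 2, and Acan lies between 8.49 and 9.31 in all 3 SMC-IRF9-TG pools.

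The chains of the ordinary vascular basement membrane were not called. Col4a1 (1452035_at), which makes most type IV collagen together with Col4a2, read 10.65, 10.38 and 9.76 in NTG and 10.34, 9.71 and 10.94 in SMC-IRF9-TG (difference 0.06, interval -0.73 to 0.86). Col4a2 (1424051_at) read 9.07, 9.10 and 8.31 against 9.28, 8.86 and 10.22 (difference 0.63, interval -0.22 to 1.48). Both genes overlapped between groups and were lowest in the same pool of SMC-IRF9-TG, pool 2, and highest in pool 3. Col18a1 (1426955_at), the source of endostatin, had the same order in the transgenic pools, at 10.31, 9.76 and 11.04, against 10.25 to 10.71 in NTG (difference -0.12, interval -0.85 to 0.61). The other Col18a1 probe set differed by 0.36 and did not share that order (9.11, 9.29 and 10.03 in SMC-IRF9-TG). Col15a1 (1448755_at), the relative of Col18a1 in the outer zone of basement membranes, read 6.91, 5.87 and 7.31 against 6.36 to 6.72 (difference 0.16, interval -0.64 to 0.95). The spread between transgenic pools was 0.62 to 0.74 (SD) for these 4 genes, about as wide as their differences or wider. Col7a1 (1419613_at), of the anchoring fibrils of epithelia, was below NTG in every transgenic pool (difference -0.43, adjusted p = 0.231).

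Col4a1 and Col4a2 are neighbours that run in opposite directions, and the stretch that their windows share, chr8:11312777-11312854 on the plus strand (78 bases), is shown because it lies in both windows.
Col4a1 and Col4a2: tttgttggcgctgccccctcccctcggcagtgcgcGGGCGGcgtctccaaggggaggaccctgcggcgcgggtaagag
It held 1 GC box, in capitals. The collagen genes held 4 pairs of neighbours, in either orientation, with no protein-coding gene between them in RefSeq. Col3a1 and Col5a2 both rose, by 1.71 and 2.29, while Col6a1 and Col6a2 differed by 0.86 and 0.29 and Col4a3 and Col4a4 by 0.91 and -0.44, with none of those 4 called.

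Type IV collagen of the second kind, built from the chains of Col4a3, Col4a4 and Col4a5, is the network of the glomerulus, and Col4a5 also pairs with a chain of smooth muscle basement membranes. Col4a5 (1425476_at) read 8.38, 8.31 and 8.996 in NTG and 10.12, 9.87 and 10.46 in SMC-IRF9-TG, a 3.01-fold rise (difference 1.59, standard error 0.26, adjusted p = 0.0179). The groups did not overlap by either probe set, and the second rose by 2.79. The call by the first was kept in 2 of 6 fits that left out a pool. It was lost without NTG pool 1 or any 1 SMC-IRF9-TG pool (adjusted p of 0.0585 to 0.0821, range 0.00355 to 0.144 over all 15 alternatives). With the block for the NTG pools of high Xist, which ended most other collagen calls as well, it differed by 1.16 (adjusted p = 0.145). Col4a3 (1438779_at) read 4.41, 4.86 and 3.50 against 4.97, 4.66 and 5.87 (difference 0.91, interval -0.02 to 1.84). Col4a4 (1445328_at) read 7.20, 7.04 and 5.61 against 5.87, 5.88 and 6.80 (difference -0.44, interval -1.44 to 0.57). By these probe sets NTG pool 3 was the lowest array for both genes. It was not the lowest by any other probe set of either gene. Of 8 basement membrane genes, 1 was called higher (12.5%, against 3.11% of all genes) and the median difference was 0.11.

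The 4 transmembrane collagens had negative differences, with a median of -0.43, and 1 was called. The median over all probe sets was -0.13, and the lower quartiles of the arrays were also lower in SMC-IRF9-TG. With each array centred on its median, the class median was -0.34. How much of these differences is shared by dim probe sets at large was not tested. Col23a1 (1440911_at), a collagen shed from the surface of epithelial and other cells, read 4.17, 4.42 and 3.95 in NTG and 3.30, 3.23 and 3.18 in SMC-IRF9-TG. It fell 1.92-fold (difference -0.94, standard error 0.20, adjusted p = 0.0468) without overlap. The call was kept in 1 of 6 fits that left out a pool, the one without NTG pool 3, and in 3 of 15 alternatives (adjusted p of 0.0353 to 0.182). It was lost with each array centred on its median (difference -0.85, adjusted p = 0.0748). Its other probe sets differed by -0.70 (adjusted p = 0.117) and -0.16. Col25a1 (1421427_at), a collagen of neurons and developing muscle, read 5.78 to 5.97 against 5.28 to 5.65 without overlap (difference -0.43, adjusted p = 0.229), and its other probe set differed by 0.32. Col13a1 (1422866_at), of cell adhesion sites, read 2.52 to 3.61 against 2.46 to 2.74 (difference -0.40, interval -1.04 to 0.25). Col17a1 (1418799_a_at), of epidermal hemidesmosomes, had means of 2.52 and 2.08, both under the lower quartile of their arrays, so the size of its difference is not known. Of 6 epithelial markers, 1 (Cdh1, difference -1.38) was called lower, against 0.511% of all genes. In 4 of the 6 each SMC-IRF9-TG pool lay below every NTG pool, against 16.1% of all genes. Negative differences were seen for 5 markers, and the median was -0.54, against -0.05 over all genes. The part of epithelial cells in the collagen values was not tested.

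Genes that act on collagen outside the chains themselves gave a mixed picture. Of 19 genes of collagen folding and modification, 3 were called higher (15.8%, against 3.11% of all genes), none lower, and the median difference was 0.98. These were Sparc, a collagen-binding glycoprotein (difference 2.19), Fkbp14, a prolyl isomerase of the endoplasmic reticulum (1.19), and Crtap, of the prolyl 3-hydroxylase complex (1.08). For 15 of the 19 (78.9%) each SMC-IRF9-TG pool was above every NTG pool, against 16.1% of all genes. Of 11 genes of procollagen processing and crosslinking, 4 were called higher (36.4%, against 3.11% of all genes). Pcolce, which enhances removal of the C-terminal propeptide, rose by 2.13 and Lox, which starts crosslinking, by 2.04. Bmp1, the propeptidase itself, rose by 1.85 and Loxl3, the crosslinking relative of Lox, by 1.46. Of 9 collagen receptors none was called (median difference -0.10), and Itgb1 and Ddr2 differed by 1.66 (adjusted p = 0.13) and -0.10. Of 8 further collagen chains outside the 34, none was called (median -0.30). Col4a6, the partner of Col4a5 in smooth muscle, differed by 0.57 (adjusted p = 0.156) and Col20a1 by -0.51.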

How the data were processed

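Arrays of 6 pools, 3 of each group, were read. The authors deposited 1 table of log2 levels, which per the submitters' processing notes came from RMA in Affymetrix Expression Console, with no version given. RMA corrects background, normalizes by quantiles and summarizes probes, so a global change between groups would be reduced. No further normalization was applied, and 64 control probe sets were left out. A gene name was taken where a probe set lists a single gene (34945 of 45037). The groups were compared with limma 3.58.1 in R 4.3.3, 2-sided, at a threshold of 0.05 after Benjamini-Hochberg adjustment across the 45037 probe sets. The fit was tested on simulated data first. Tables and figures used Python 3.11.15, pandas 2.3.3 and matplotlib 3.10.9. Array number limits precision. The members, gene lists and tests were chosen with earlier results of these data known. All members are named, with up to 4 called genes, or the 2 of highest level, for each other list, and the other chondrocyte markers were named after their values were seen. Alternatives covered normalization, a filter on dim probe sets, the variance prior, the test, a replicate block, left-out pools, probe sets and thresholds, and 3 were added after seeing the data. Markers of endothelium, skeletal muscle, adipocytes and Schwann cells were also read, and of their genes Tie1 was called (higher).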

Additional observations from a re-analysis of the deposited data

How the results depend on the processing

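The 10 collagen genes called higher and 1 called lower, and the median difference of 0.80, were recomputed under each alternative. The numbers called higher and lower were 11 and 0 with each array centred on its median, 8 and 0 after quantile normalization, 12 and 1 without dim probe sets, 11 and 0 with a trended and robust variance prior, and 10 and 0 when probe sets of a gene were averaged. At thresholds of 0.10 and 0.01 they were 12 and 1, and 8 and 0. By the methods' t-test they were 0 and 0 (13 and 3 of 34 at an unadjusted p under 0.05), where 1 probe set passed on the whole array. That unadjusted limit was met by 18.6% of all probe sets, a share that joins both directions and counts probe sets rather than genes. Leaving out 1 pool gave 7 to 11 higher, 0 to 1 lower and medians of 0.59 to 0.91. Calls of Col1a1, Col1a2, Col3a1, Col5a2, Col6a3, Col8a1 and Col14a1 were kept in 6 of 6 such fits, but not all of them under the blocks described next. With the probe set of highest NTG mean for each gene, they were 9 and 1, the median was 0.65, the FACIT median 0.60, Col9a1 turned to -0.038 and Col12a1 was not called.

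The replicate block gave 9 higher and 0 lower. Replicate numbers were not taken to pair the pools, since the deviations of same-numbered pools correlated at -0.15, -0.00 and 0.03. A block for the NTG pools of high Xist, which leaves NTG pool 3 alone, gave 2 higher (Col1a2 and Col8a1), 0 lower and a median of 0.94. A block for the SMC-IRF9-TG pools of low poly-A controls, which leaves pool 3 alone, gave 2 higher (Col1a1 and Col8a1), 0 lower and a median of 0.65. Col3a1, Col5a2, Col6a3 and Col14a1 lost their calls under both. Both blocks and the choice by NTG mean were made after seeing the data, and the lone pool is assumed to vary like the others. The FACIT median was 0.72 with averaged probe sets and 0.77 with the poly-A block, and the basement membrane median was 0.72 with the poly-A block.

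The genes that turned direction were all uncalled. They were Col4a1 (-0.20) and Col15a1 (-0.15) after quantile normalization, Col5a3 (-0.38) and Col18a1 (0.12) with averaged probe sets, and Col4a4 (0.58), Col15a1 (-0.024) and Col18a1 (0.12) with the Xist block. With the poly-A block they were Col5a3 (-0.0081), Col8a2 (-0.15), Col9a2 (-0.061), Col4a4 (0.18) and Col18a1 (0.55). When 1 pool was left out, differences ranged from -0.17 to 0.25 for Col5a3, -0.28 to 0.42 for Col8a2, -0.0026 to 0.83 for Col9a2, -0.24 to 0.38 for Col4a1, -0.15 to 0.57 for Col15a1 and -0.45 to 0.19 for Col18a1. The causes were not tested. Levels near background limit what the arrays can show for Col17a1.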
